A study of Mus musculus with 454 samples.

Results

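The ATP-gated P2X channel genes examined here were P2rx2, P2rx3, P2rx4 and P2rx6. They were chosen by name, not by a measured value, though with earlier results of these data known. All 4 were found among the 36875 distinct symbols of the picked-cell table and among the 28001 genes of the droplet matrix. The other family genes, P2rx1, P2rx5 and P2rx7, are given beside them for context. The study profiled single cells of the nodose ganglion of wild-type C57BL/6 mice in 2 ways. Ganglia were dissociated with papain, collagenase and dispase. Cells from mice of 6 weeks went into 1 droplet library made with the 10x Genomics method. The other cells came from mice of 8 to 12 weeks and were sequenced one by one with Smart-Seq 2, a full-length method. Header lines of their table give each cell a mouse number and a target code, GastG, GastP, IntP, IntM, IntD, IntL, Port or na, which is used here as written because no source expands it. The droplet library is 1 sample with no replicate, and how many animals went into it was not stated, so its values carry counting error only, whereas the picked cells allow mice to be compared. The codes held 60 GastG, 45 GastP, 45 IntP, 45 IntM, 35 IntD and 44 IntL cells, 38 Port cells with and 84 without the injury gene Sprr1a, and 53 na cells, which entered no comparison. GastG and GastP are together called Gast, and the 4 codes that begin with Int are called Int.

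P2X channels are cation channels on the cell surface that open when extracellular ATP binds. Their subunits assemble as trimers, and P2X2 and P2X3 can form mixed channels with properties that differ from those of either subunit alone. In sensory ganglia these channels let neurons respond to ATP released from nearby tissue, and P2X3 is a target of drugs against chronic cough, a reflex carried by vagal sensory fibres.

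By the GENCODE annotation of GRCm38, P2rx2 (ENSMUSG00000029503) lies on chromosome 5 from 110339812 to 110343212 on the minus strand and P2rx3 (ENSMUSG00000027071) on chromosome 2 from 84998583 to 85037462 on the minus strand. P2rx4 (ENSMUSG00000029470) lies on chromosome 5 from 122707544 to 122729738 and P2rx6 (ENSMUSG00000022758) on chromosome 16 from 17561885 to 17577800, both on the plus strand. Exons of P2rx6 overlap those of Slc7a4 on the opposite strand by 554 bases, and exons of P2rx3 overlap those of Ssrp1 by 51 bases. Reads from such overlaps cannot be told apart where strand is not recorded. All 23 picked cells with P2rx6 also had Slc7a4, as did 98.9% of all picked cells. The correlation of the levels over the picked cells, which share a library method, was 0.05, with 0 P2rx6 reads in 86.4% of them. Reads outside the overlap were not counted apart, so the part of shared reads was not tested. Of the 4 genes, RefSeq's promoter table (GRCm38.p6) matched P2rx4 and P2rx6, whose sequences are shown because P2rx4 was read in nearly all picked cells and P2rx6 in few. The 250 bases before the start of P2rx4 (chr5:122707294-122707543, plus strand) and of P2rx6 (chr16:17561635-17561884, plus strand) are printed with CG dinucleotides in capitals.
P2rx4: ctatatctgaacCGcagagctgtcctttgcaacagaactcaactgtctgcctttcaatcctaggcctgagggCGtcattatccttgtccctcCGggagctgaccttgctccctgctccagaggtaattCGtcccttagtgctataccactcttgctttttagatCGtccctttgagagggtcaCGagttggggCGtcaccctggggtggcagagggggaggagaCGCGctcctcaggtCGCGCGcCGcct
P2rx6: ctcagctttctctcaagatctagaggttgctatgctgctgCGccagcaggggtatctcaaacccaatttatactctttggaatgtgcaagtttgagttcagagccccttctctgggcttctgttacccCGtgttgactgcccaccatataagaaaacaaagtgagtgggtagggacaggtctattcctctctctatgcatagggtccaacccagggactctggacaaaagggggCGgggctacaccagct
The P2rx4 window held 13 CG dinucleotides, more than 68.5% of the 32851 promoters of the table, and the P2rx6 window held 3, more than 29% of them, against a median of 6. The motif TATAAA, searched on both strands, was absent from the P2rx4 window and present in the P2rx6 window on the strand opposite to the gene. It was found in 12.4% of all promoters in the table at the same length.

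The droplet matrix as filtered by the authors held 1108 barcodes with a median of 55397 UMIs, of which 1087 were neurons (median 56119, range 13505 to 169263) and 21 were satellite glia. All but 3 of the picked cells passed the minimum of 2000 genes, and those that passed had a median of 1617516 reads (range 3934 to 4692462). The labelled tissue was checked on markers. Snap25, a synaptic protein of neurons, had at least 10 reads in 100% of picked cells, and Prdm12, a factor of jugular neurons, in 0.668%. The other genes of the jugular marker list went the other way, with Isl2 in 99.8%, Runx1 in 40.3% and Prrxl1 in 25.8% of picked cells. In 4 mice (Port 21, 22 and 27, and GastP 44) over 30% of cells had 10 reads of Sprr1a, a gene induced in sensory neurons by nerve injury. The P2X results that these mice change are given with and without them.

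P2rx2 was the most abundant P2X transcript in droplet neurons and varied over 20.8-fold between neuronal clusters, which were made with the P2X genes left out. It had 19427 UMIs in the 1087 neurons, or 286.9 CPM, its UMIs scaled to a common library total (exact Poisson 95% interval 282.9 to 290.96), and 97.1% of neurons had at least 1. Endothelial cells of the unfiltered matrix, which should lack neuronal genes, had a P2rx2 UMI in 12% and a P2rx3 UMI in 1.6% of cells, at a median of 8619 UMIs. P2rx4, which is not confined to neurons, had a UMI in 8.8% of them. P2rx3 followed with 33.6 CPM (32.2 to 35) and a UMI in 77.4% of neurons. The levels of these 2 genes were only loosely related across the 29 clusters (Pearson r of log levels 0.29, over clusters of 1 library that differ in depth), as the plot of P2rx2 against P2rx3 shows.

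**Figure D1:**
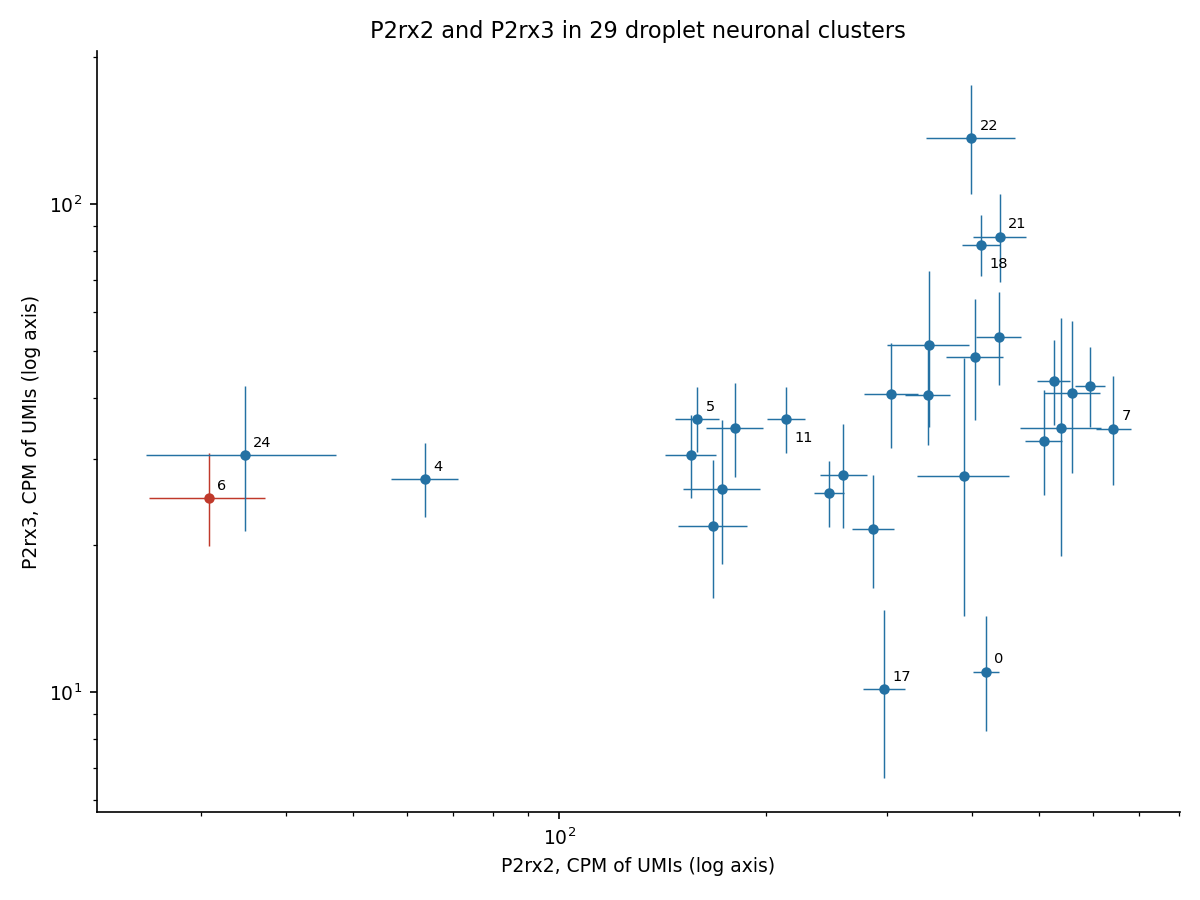
P2rx2 against P2rx3 in the 29 neuronal clusters of the droplet library, both in CPM on log axes, with exact Poisson 95% intervals, the jugular-like cluster in red and the cluster number beside some points. Clusters 6, 24 and 4 lie apart at low P2rx2, and clusters 17 and 0 at low P2rx3.

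The lowest P2rx2 levels were 30.8 CPM in cluster 6, the jugular-like cluster led by Tac1 and Calca, and 34.8 in cluster 24. Cluster 4, led by Sst and Ctxn3, followed at 63.7 (56.8 to 71.3), and no other cluster was below 155.4. The highest was cluster 7, led by Gal and Rtp1, at 641 (604 to 680). Over all jugular-like against all nodose-like neurons the ratio was 0.102 for P2rx2 (exact interval 0.0838 to 0.124) and 0.733 for P2rx3 (0.583 to 0.91), with 47 and 1040 cells. For P2rx4 the ratio was 1.13 with an interval that holds 1 (0.855 to 1.47). The jugular-like cluster was thus further below the rest in P2rx2 than in P2rx3, and P2rx2 had 55.3% of the UMIs of the pair there, against 89.5% over all neurons. The endothelial cells had 14.7 CPM of P2rx2 (8.22 to 24.2). The part of transcripts from other cells in the low levels of clusters 6 and 24 was not tested.

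P2rx3 was lowest in cluster 17, led by Vip and Sdpr, at 10.1 CPM (6.68 to 14.7) and in cluster 0, led by Uts2b and Cckar, at 11 (8.32 to 14.3). Their P2rx2 levels were 297.5 and 418.4, and P2rx2 made up 96.7% and 97.4% of the pair's UMIs. The next lowest cluster had 21.6. At the other end, clusters 18 (Pappa2 and Lypd1) and 21 held 82.4 and 85.7. Cluster 22, led by Gpr65 and mt-Nd4l, had 136.5, but its 22 cells were the shallowest of any cluster, with a median of 18854 UMIs. It also had the highest P2rx4, at 44, and the part of depth in these levels was not tested. Without cluster 22 the highest P2rx4 was 22.8.

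P2rx4 is a widely expressed subunit that is also known from microglia and other immune cells. In neurons it had 15.4 CPM (14.5 to 16.4) and a UMI in 58.7% of cells, and apart from cluster 22 its levels ran only from 6.93 to 22.8 across clusters. Satellite glia of the unfiltered matrix, the cells that wrap the neurons, had a higher share of P2rx4 among their UMIs than the neurons there. It was 54 CPM (45.9 to 63.2 over 472 cells with a median of 5340 UMIs), against 15.2 in the neurons (median 53511 UMIs). The level was also higher in the few macrophages, at 91.8 CPM (36.9 to 189.1 over 20 cells), and fibroblasts, at 64.98 CPM (28.1 to 128.03 over 20 cells). The share of cells with a P2rx4 UMI stood in the other order. It was 26.3% in these glia, 25% in the macrophages and 35% in the fibroblasts, against 54.2% in the neurons. The same glia had a P2rx2 level of 16.3 and a P2rx3 level of 3.46, below the 287.8 and 33.3 of the neurons. P2rx7, the channel that also forms a large pore, was likewise high in satellite glia at 35 CPM and in myelinating Schwann cells at 30.2, against 1.02 in neurons. The neuronal clusters 2, 14, 25 and 26 held 5736 to 7222.5 CPM of the satellite glia markers in sum, and P2rx4 in them was 18.3, 17.9, 13.6 and 6.93.

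P2rx6, a subunit that forms channels poorly by itself, was read in few neurons, and most of its UMIs lay in 5 clusters. Its level was 2.88 CPM (2.49 to 3.31), with a UMI in 9.02% of neurons. No P2rx6 UMI was found in the endothelial cells, which allows up to 2.94 CPM there. Cluster 24 stood highest with 45 CPM (33.7 to 58.8) and a UMI in 85% of its 20 cells. Cluster 18 followed at 18.6 (13.4 to 25) with 66.7% of cells, then cluster 23, led by Cbln2 and Lamp5, at 13.3, the jugular-like cluster 6 at 12.6 and cluster 15, led by Thsd7a and Aqp1, at 6.77. These 5 clusters, with 20, 36, 22, 47 and 38 cells, held 86.7% of all P2rx6 UMIs in neurons. No UMI was found in 10 clusters, where a count of 0 allows up to 0.66 to 7.45 CPM. In jugular-like against nodose-like neurons the ratio was 5.34 (3.71 to 7.53). The jugular-like cluster and cluster 24 thus had P2rx6 beside the lowest P2rx2, whereas clusters 18 and 23 had it beside 411.2 and 403.1 CPM of P2rx2.

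**Figure D2:**
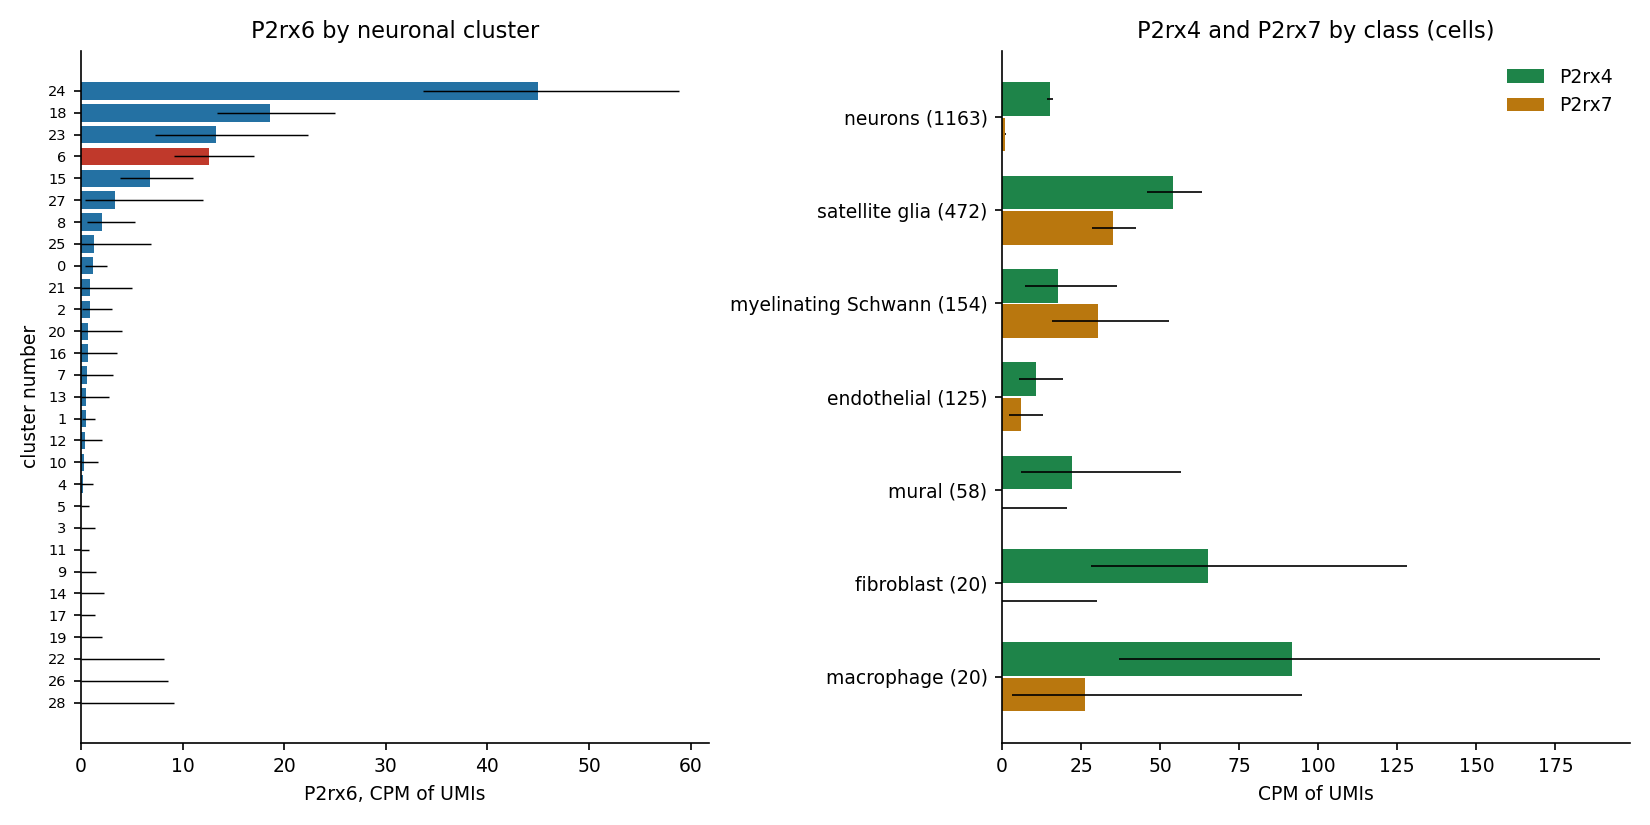
Left, P2rx6 in CPM in each neuronal cluster of the droplet library, jugular-like in red, and right, P2rx4 and P2rx7 in the cell classes of the unfiltered matrix, with the number of cells and exact Poisson 95% intervals. P2rx6 is concentrated in clusters 24, 18, 23, 6 and 15, and satellite glia exceed neurons in the CPM of both P2rx4 and P2rx7.

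Of single droplet neurons, 42.8% had UMIs of P2rx2, P2rx3 and P2rx4 together, 26.8% of P2rx2 and P2rx3 without P2rx4 or P2rx6, and 0.368% of none of the 4. With each neuron thinned to 13000 UMIs (none left out) the shares with a UMI were 86.3% for P2rx2, 34% for P2rx3, 19.2% for P2rx4 and 3.68% for P2rx6. Each share was lower at the thinned depth.

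The deeper picked cells had 3 of the 4 genes nearly everywhere. At 10 reads, P2rx2 was read in 98.9% of the cells that passed (Clopper-Pearson 95% interval 97.4 to 99.6), P2rx3 and P2rx4 each in 98.2% (96.5 to 99.2), and P2rx6 in 5.12% (3.27 to 7.59). P2rx5 was read in 25.4% and P2rx7 in 11.1%, and P2rx1 was listed at 0 in every cell. P2rx2, P2rx3 and P2rx4 without P2rx6 were found together in 91.5% of cells, and all 4 in 21 cells more. Per kilobase of exon, the median level was 229.9 CPM for P2rx2, 256.07 for P2rx3 and 6.53 for P2rx4, so that P2rx3 was not below P2rx2 there. In the droplet library, which counts molecules at one end of the transcript, P2rx2 exceeded P2rx3 in UMIs in each of the 29 clusters, though the interval of its share held an even split in clusters 24 (41.5% to 64.7%) and 6 (47.9% to 62.5%).

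For P2rx2 and P2rx3 the order of the cell types was similar in both methods. Each picked cell was matched to the droplet cluster it resembled most over 554 genes that left out all P2X genes. Matched to profiles of the remaining droplet neurons, 85.8% of 543 droplet neurons returned to their own cluster. Those neurons had helped to make the clusters and to choose the 554 genes. How well cells of the other method were matched was not tested. Over the 15 clusters with at least 5 matched cells, the Pearson correlation of log levels was 0.96 for P2rx2 and 0.97 for P2rx3, with points that share the matching and differ in depth. It was -0.12 for P2rx4. None is given for P2rx6, whose median was 0 in 14 of the 15 clusters. Cells matched to the Sst and Ctxn3 cluster had the lowest median P2rx2 of these, 131.2 CPM in 59 cells, and those matched to the Gal and Rtp1 cluster the highest, 2373 CPM in 12 cells. Cells matched to the Uts2b and Cckar cluster and to the Vip and Sdpr cluster had the lowest P2rx3, at 239.2 and 257.6 CPM, and the other 13 clusters ran from 556 to 1099. Of the 23 cells with P2rx6, 4 were among the 7 matched to the cluster led by Ntrk3 and Pdyn, and the 6 cells matched to clusters 18, 23 and 24 all had it. The highest level in a P2rx6 cell was 147.9 CPM, and the median of the 23 was 12.3.

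**Figure D3:**
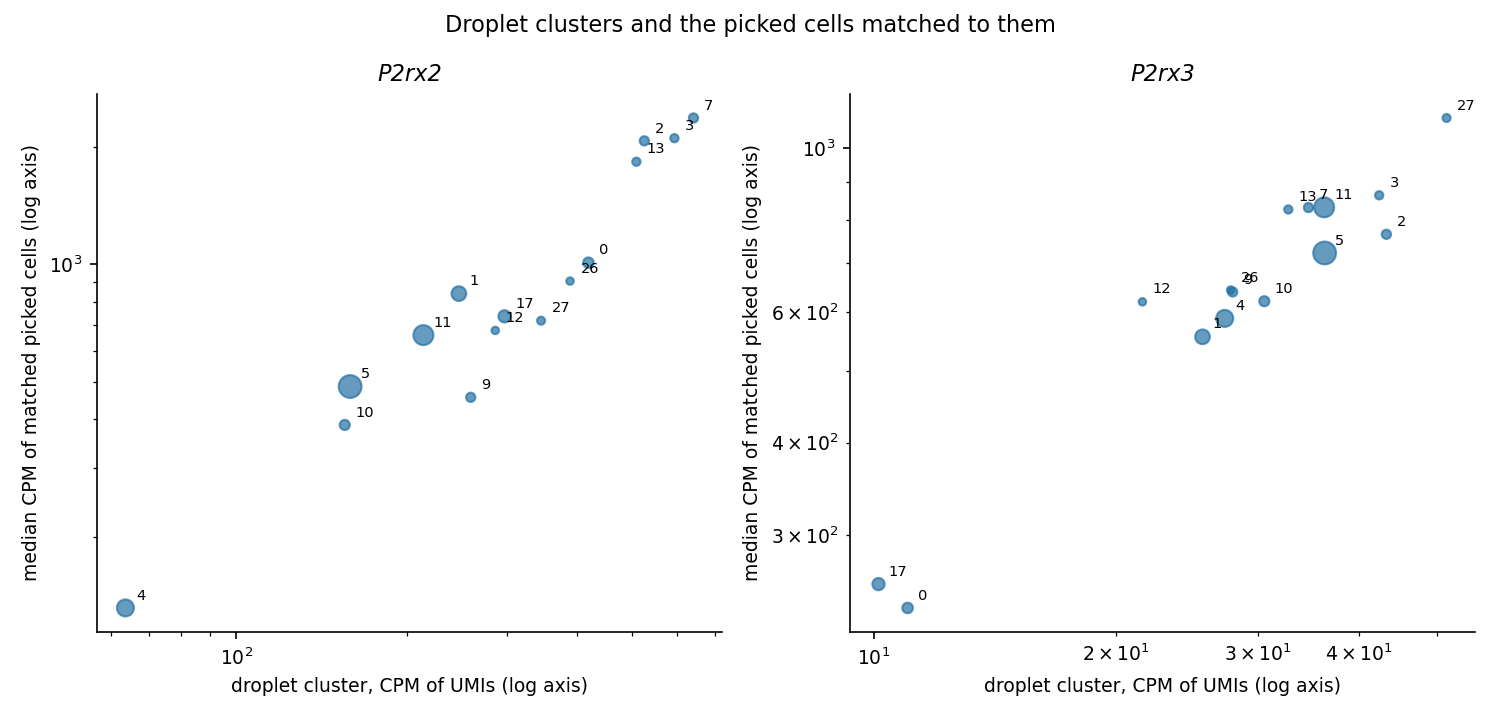
Level in a droplet cluster (CPM, log axis) against the median CPM of the picked cells matched to it (log axis) for P2rx2 and P2rx3, in the 15 clusters with at least 5 matched cells, numbered by cluster and with areas that grow with the number of cells. Cluster 4 is lowest for P2rx2, and clusters 0 and 17 for P2rx3.

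P2rx2 was lower in cells of Gast codes than in cells of Int codes, and the mice did not overlap. As mouse means of log2(CPM + 1), P2rx2 in the 5 GastG mice was 7.93, 8.57, 8.65, 7.56 and 8.43, and in the 3 GastP mice it was 7.77, 7.11 and 8.20. The 4 IntP mice had 9.22, 9.27, 9.26 and 9.40, the IntM mice 9.50, 9.40 and 9.70, the IntD mice 9.35, 8.85 and 9.42, and the IntL mice 9.73, 9.36 and 9.30. Every one of the 8 Gast mice was below every one of the 13 Int mice, which was so for 41 of the 12685 genes tested (0.323%, or 0.654% counting either direction). The difference was -1.41 ± 0.23 (SE) on the log2(CPM + 1) scale (limma, adjusted p = 7.07e-05 over all genes), where 14.8% of all genes tested passed, 5.73% with lower and 9.07% with higher values in Gast. With edgeR on reads summed per mouse it was -0.82 (adjusted p = 0.00393). Without the 4 mice of high Sprr1a it was -1.54 (adjusted p = 4.45e-09).

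**Figure D4:**
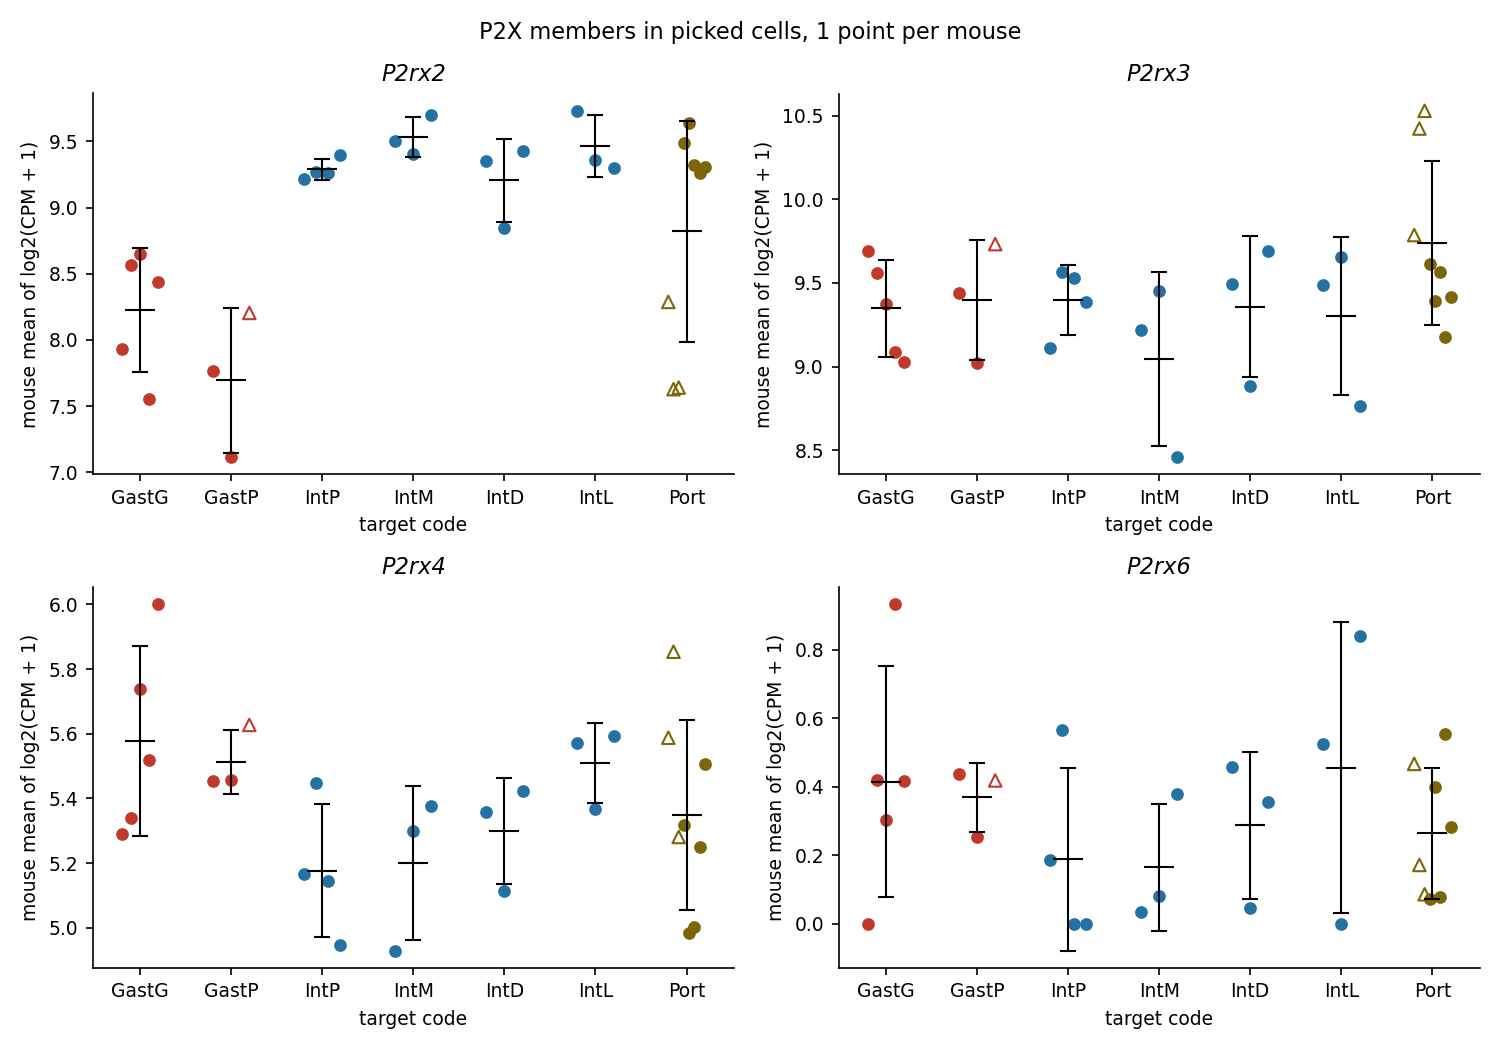
Mouse means of log2(CPM + 1) of the 4 P2X genes by target code, 1 point per mouse, with the mean and SD of the mice of a code and open triangles for the 4 mice in which over 30% of cells had Sprr1a. P2rx2 lies between 7.11 and 8.65 in Gast mice and between 8.85 and 9.73 in Int mice, and the Port mice split into 3 low and 5 high.

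The matched types of the cells differed along with the codes. Of the Gast cells, 36.2% were matched to the Sst and Ctxn3 cluster, whose P2rx2 is low in the droplet library, against 0.592% of the Int cells. Conversely 2.86% of Gast and 32.5% of Int cells were matched to the Gpr65 and Galc cluster. The comparison could be fitted within 1 matched type, the cluster led by Mgll and Dcdc2a, with 71 cells of 6 Gast and 11 Int mice. P2rx2 in these cells ran from 6.58 to 8.29 with a median of 7.95 in Gast mice and from 8.22 to 9.38 with a median of 9.18 in Int mice, so that only Gast mouse 44, at 8.29, was above the lowest Int mouse. The difference was -1.21 ± 0.22 (limma, adjusted p = 0.00334), in a fit where 4.46% of all genes passed, and -1.33 without mouse 44. P2rx3 in the same cells had medians of 9.79 in Gast and 9.38 in Int mice, a difference of 0.34 ± 0.11 that did not pass (limma, adjusted p = 0.0707). It passed when IntL mouse 34 (0.39, adjusted p = 0.0116) or IntL mouse 39 (0.37, adjusted p = 0.0472) was left out. Finer types within the cluster were not tested.

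**Figure D5:**
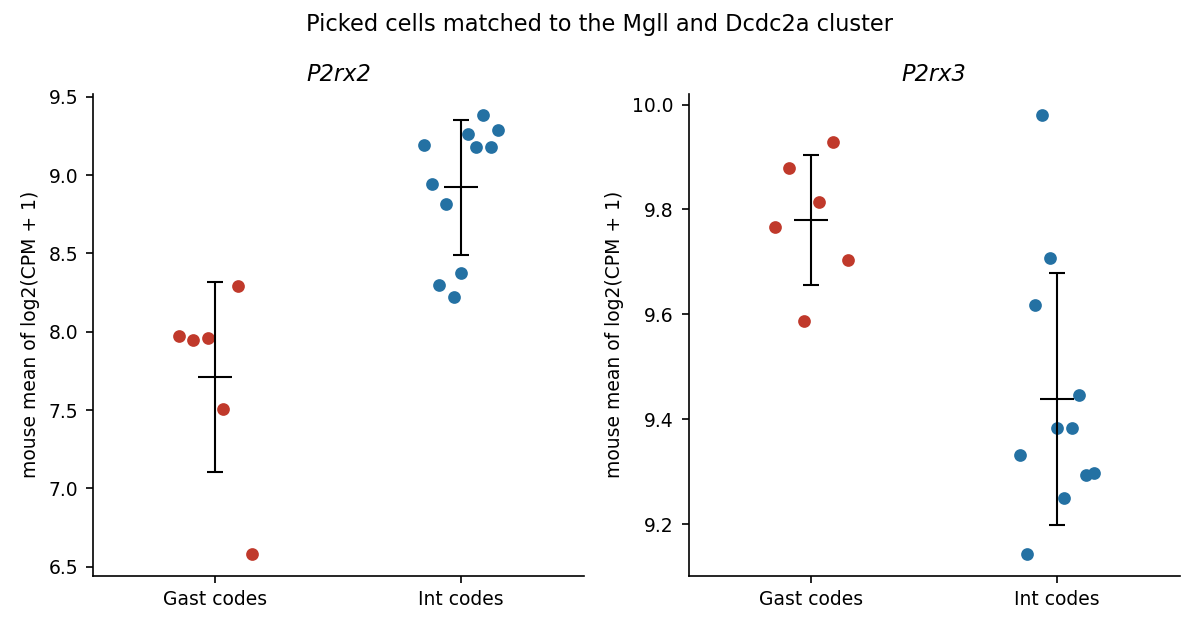
Mouse means of log2(CPM + 1) of P2rx2 and P2rx3 over picked cells matched to the Mgll and Dcdc2a cluster, for 6 mice of Gast and 11 of Int codes, with mean and SD. P2rx2 has a mean of 7.71 in Gast and 8.92 in Int mice, and P2rx3 9.78 and 9.44.

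None of the other 3 members passed the test between Gast and Int. Mouse means of P2rx3 ran from 9.02 to 9.73 (median 9.41) in Gast and from 8.46 to 9.69 (median 9.45) in Int mice, a difference of 0.10 ± 0.17 (limma, adjusted p = 0.777). P2rx4 ran from 5.29 to 6.00 and from 4.93 to 5.59, a difference of 0.25 ± 0.11 (adjusted p = 0.153). P2rx6, at or near 0 in most cells, differed by 0.12 ± 0.13 (adjusted p = 0.605) and was read in 5 of 60 GastG, 3 of 45 GastP, 1 of 35 IntD, 3 of 44 IntL, 1 of 45 IntM and 2 of 45 IntP cells. Of the family outside the 4, P2rx5 differed by -0.12 ± 0.27 (adjusted p = 0.833). P2rx7 was higher in Gast by 0.56 ± 0.18 (adjusted p = 0.0368), a call that was lost with edgeR (adjusted p = 0.077) and without the 4 mice of high Sprr1a (adjusted p = 0.173). GastP mouse 44, the highest in P2rx7 at 1.97, also had the highest summed level of satellite glia markers. That sum ran from 210.7 to 2981 CPM in Gast and from 262.8 to 2972 CPM in Int mice, and its part in this difference was not tested.

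In Port cells P2rx2 and P2rx3 split by mouse. Over the 8 Port mice P2rx2 ran from 7.63 to 9.64 with a median of 9.28. The 3 mice of high Sprr1a, 21, 22 and 27, had P2rx2 at 8.29, 7.63 and 7.64 and P2rx3 at 9.79, 10.4 and 10.5. The other 5 had P2rx2 from 9.26 to 9.64 and P2rx3 from 9.17 to 9.62, so that the mice of high Sprr1a were below the others in P2rx2 and above them in P2rx3. P2rx5 was also above, at 1.90 to 2.92 against 0.775 to 1.55. The mice were grouped after the data were seen, and the share of all genes that separate these mice was not counted, so the separation only describes these mice. The mice of high Sprr1a are numbered 21 to 27 and the others 46 to 53, so Sprr1a and mouse number cannot be told apart between them. Cells of these 3 mice with 10 reads of Sprr1a had a median P2rx3 of 1532 CPM (31 cells), and their cells without it had 649.9 CPM (11 cells), whereas P2rx2 was 268.5 and 207.3 CPM. In the other Port mice, 1 of which had too few cells for the fits, the 7 cells with Sprr1a had a median P2rx3 of 1553 CPM and the 73 cells without it 704 CPM. Their P2rx2 stood in the other order, at 545.3 CPM with and 683.8 CPM without Sprr1a.

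The mean of the Port mice in P2rx2, 8.82, lay between those of Gast, 8.03, and Int mice, 9.37. Against the rest, taken as the mean of the Gast mean and the Int mean, Port differed by 0.15 ± 0.21 in P2rx2 (limma, adjusted p = 0.714) and by 0.41 ± 0.16 in P2rx3 (adjusted p = 0.111), where 4.97% of all genes passed, 2.03% with higher and 2.95% with lower values in Port. Of these calls 40.7% were higher in Port, against 76.6% with edgeR. With the 6 other codes weighted equally the difference in P2rx2 was -0.082 (adjusted p = 0.849, with 9.26% of genes called). Taken apart, it was 0.86 ± 0.25 against Gast (adjusted p = 0.0576, with 3.08% of genes called) and -0.55 ± 0.23 against Int (adjusted p = 0.0945, with 15.5% called), neither of which passed. Both members' results depended on which mice were used. Without the 4 mice of high Sprr1a, P2rx2 was higher in Port than the mean of the Gast and Int means by 0.80 (adjusted p = 0.0044), and than the 6 codes weighted equally by 0.54 (adjusted p = 0.0417, with 1.31% of genes called). In the remaining mice Port was above Gast by 1.57 ± 0.16 (limma, adjusted p = 1.12e-06, with 5.13% of genes called), whereas its difference from Int was 0.029 ± 0.14 (adjusted p = 0.949, with 4.49% called). P2rx3 then differed from the mean of the Gast and Int means by 0.15 (adjusted p = 0.716). The Port mice left are numbered 46 to 53 and the Int mice 11 to 39, and every Gast mouse is numbered below 46. Port thus shares no range of mouse numbers with the other codes there, and code and mouse number cannot be told apart. Among mice numbered up to 39, where the 3 Port mice are all of high Sprr1a, P2rx2 was lower in Port by -0.76 (adjusted p = 0.00144) and P2rx3 higher by 0.89 (adjusted p = 0.00276). With edgeR on all mice P2rx3 was higher by 0.51 (adjusted p = 0.0308). P2rx4 and P2rx6 differed by -0.07 ± 0.10 and -0.07 ± 0.12 (adjusted p = 0.724 and 0.775).

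Within the Gast and within the Int codes no member passed the test. Ordered by mean, P2rx2 was 7.70 ± 0.55 (SD) in GastP, 8.23 ± 0.47 in GastG, 8.82 ± 0.84 in Port, 9.21 ± 0.31 in IntD, 9.29 ± 0.08 in IntP, 9.46 ± 0.23 in IntL and 9.54 ± 0.15 in IntM. The mice of each code overlapped those of the next code in this order. GastG exceeded GastP by 0.53 ± 0.37 in P2rx2 (limma, adjusted p = 0.996), in a comparison where 0% of genes passed and 549 of 12685 had an unadjusted p under 0.05 (edgeR likewise called 0, with 587 under 0.05). Across the Int codes the range of P2rx2 was 0.33 (limma F test, adjusted p = 0.907), where 9.88% of genes passed. P2rx3 means spread by 0.35 across the Int codes (adjusted p = 0.786), P2rx4 by 0.33 (adjusted p = 0.533) and P2rx6 by 0.29 (adjusted p = 0.724). IntL against the other Int codes gave 0.12 ± 0.33 for P2rx2, 0.04 ± 0.25 for P2rx3, 0.28 ± 0.16 for P2rx4 and 0.24 ± 0.18 for P2rx6, with adjusted p-values of 0.884, 0.96, 0.339 and 0.501 (limma), where 5.51% of genes passed, 3.04% with higher and 2.48% with lower values in IntL. Of those calls 55.1% were higher, against 65.9% with edgeR.

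Of a list of 38 other genes of ATP release, nucleotide breakdown, adenosine uptake, P2X binding and the P2Y and adenosine receptors, 27 were tested. Between Gast and Int 3 were higher and 2 lower (limma), beside 14.8% of all genes called, with a median difference of 0.07 in the list and 0.07 over all genes. The 4 of largest size were Ada, the enzyme that deaminates adenosine, at -1.41 ± 0.29 (adjusted p = 0.00113), Nt5e, which makes adenosine from AMP, at 1.24 ± 0.18 (adjusted p = 1.43e-05), the receptor P2ry14 at 0.96 ± 0.21 (adjusted p = 0.00207), and Vsnl1, a calcium sensor that binds P2X2, at -0.67 ± 0.22 (adjusted p = 0.0385). Nt5e and Ada thus differed in opposite directions. With edgeR the calls of Ada and Vsnl1 were lost. In IntL against the other Int codes 5 were higher and 1 lower, beside 5.51% of all genes called, led by Enpp2 at 1.77, Entpd2 at 1.73 and Acpp at -1.54, enzymes that act on nucleotides or lysophospholipids outside the cell, and the nucleoside transporter Slc29a1 at 0.98. The count depended on single IntL mice, since 0 passed without IntL mouse 33 (0.844% of all genes called) and 2 without IntL mouse 39 (3.85%). Without the 4 mice of high Sprr1a 10 passed (8.80% of all genes called). With edgeR 6 were higher, beside 8.42% of all genes called, and Acpp did not pass. The summed level of satellite glia markers was 1982 to 2972 CPM in the IntL mice. It was 262.8 to 1278 CPM in the mice of the other Int codes, and its part in the IntL differences was not tested. Across the Int codes 6 passed, beside 9.88% of all genes called, of which the adenosine receptor Adora1 had the widest range of code means, 2.53. That count fell to 2 without IntL mouse 33 (4.35% of all genes called) or IntP mouse 17 (4.33%). It was 3 without IntL mouse 39, IntP mouse 11 (4.801%) or IntP mouse 16 (4.65%), and 10 without the 4 mice (16.2%). Adora1 passed in each of these. In Port against the rest only the adenosine kinase gene Adk passed, beside 4.97% of all genes called, at -0.50 ± 0.10 (adjusted p = 0.0114). Adk did not pass with edgeR. In mice numbered up to 39, 12 of the list passed (27.9% of all genes called). Without GastP mouse 44 it was 5 (10.9%), and with the 6 other codes weighted equally 4 (9.26%). Between GastG and GastP none passed, though Nt5e was lower in GastG by -1.16 ± 0.28 (limma, adjusted p = 0.505).

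The genes most like each member were found by correlation of log levels, as a description of these cells. Over the 29 droplet clusters, P2rx2 was closest to Sdc3 (r = 0.85), Fam102b (0.84) and Sort1 (0.83), P2rx3 to Slf1 (0.78), Rnf145 (0.77) and Mfsd10 (0.76), and P2rx4 to Unc13b (0.73), Suco (0.72) and 4732440D04Rik (0.71). P2rx6 was closest to Htr1d (0.86), Hapln4 (0.82) and Fam160b2 (0.82). Over the picked cells that passed, which share a library method, P2rx2 was closest to Pxmp2 (0.74), Rgs9 (0.64) and Mrap2 (0.61). Pxmp2 lies 53625 bases from P2rx2 on the same chromosome and strand with no overlap. P2rx3 was closest to Fam107b (0.53), Serpinf1 (0.52) and Cnn3 (0.51), P2rx4 to Arpc1b (0.46), Ubl4 (0.45) and Scamp3 (0.44), and P2rx6 to Shh (0.44), Piezo2 (0.43) and Mctp2 (0.39). The 3 closest genes of each member differed between the 2 sources.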

How the data were processed

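Single-cell RNA profiles of mouse nodose ganglion were used. The droplet matrices hold UMI counts per gene as deposited, made with Cell Ranger 2.0.1 on mm10 per the submitters' processing notes. The picked-cell table holds log2 values as deposited by the authors. Values at the floor, equal to 0.02 reads, were set to 0, and the others were turned back into reads as powers of 2. Of the values above the floor, 94.1% were then within 1 part in 1000 of a whole number. The aligner of these reads was not given in the sources used here. A column of 1 cell without a sample of its name was left out, and of 45 symbols listed more than once the first row was used.

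Droplet cells of at least 1000 UMIs and 500 genes were clustered with scanpy 1.11.5 (2000 variable genes without P2X or purine genes, 30 components, 15 neighbours, Leiden resolution 1.5 for neurons) and named from markers, some of which are not reported here. No doublet caller was run. Picked cells were matched to clusters by rank correlation. Mouse means of log2(CPM + 1), pseudocount 1, of 29 mice with at least 4 coded cells were fitted with limma 3.58.1 (trend, 1 fit over 7 codes) for genes that reached 10 reads in 5% of cells or more, with Benjamini-Hochberg adjustment over 12685 genes at a threshold of 0.05. edgeR 4.0.16 was run on reads summed per mouse as an alternative. The fits were tested on simulated data. Nothing in the labels says that mice were prepared separately, so p-values measure the spread between mice as deposited. Intervals cover counting error only, at 95%. Members and gene lists were chosen with earlier results of these data known. Named genes were the P2X family, the purine list's genes past the threshold (at most 4 by size in a comparison), and the 3 genes most correlated with each member.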

Additional observations from a re-analysis of the deposited data

How the results depend on the processing

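P2rx2 was lower in Gast than in Int mice, past the threshold, under each alternative run. The differences from limma with each mouse left out in turn were -1.54 to -1.27 (adjusted p at most 0.000806), and edgeR gave -0.82 (adjusted p = 0.00393). The same held within the matched type (-1.33 to -0.99). No paired analysis was possible because the labels give the codes no shared replicate numbers. The low levels of P2rx6 limit every comparison of it. The droplet library has no replicate, and a matched type can hold finer types.

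The share of genes called in Port against the rest, 4.97%, was 1.01% with no filter, 8.31% with mice of at least 2 cells, 1.08% without the 4 mice of high Sprr1a, 27.9% in mice numbered up to 39 and 9.26% with the 6 other codes weighted equally. Leaving out each mouse gave 0.497% (without Port mouse 22) to 10.9% (without GastP mouse 44). It was 0.536% without Port mouse 27, 1.06% without GastP mouse 10, 1.84% without GastP mouse 9, 2.28% without Port mouse 21, 2.69% without Port mouse 53 and 8.27% without Port mouse 47. In the same comparison P2rx2 was 0.80 without the 4 mice, -0.76 in mice up to 39 and -0.082 with the codes weighted equally. P2rx3 was 0.51 with edgeR and 0.89 in mice up to 39, and P2rx4 was 0.016 with edgeR and 0.23 in mice up to 39.

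For GastG against GastP the share called was 0.0108% with no filter, 0.221% without the 4 mice, 0.0473% in mice up to 39, and 0% to 0.118% (without GastP mouse 44) leaving out each mouse. P2rx3 was 0.12 without the 4 mice, 0.40 in mice up to 39 and -0.24 to 0.12 leaving out each mouse. P2rx4 was -0.14 in mice up to 39 and -0.041 to 0.14 leaving out each mouse, and P2rx6 -0.13 and -0.084 to 0.15. For IntL against the other Int codes the share was 8.42% with edgeR, 8.80% without the 4 mice and 0.844% (without IntL mouse 33) to 6.33% leaving out each mouse, with 2.74% without IntL mouse 34. There P2rx3 was -0.0081 with upper quartile scaling and -0.14 to 0.30 leaving out each mouse, and P2rx2 -0.013 to 0.20. Across the Int codes the share was 16.2% without the 4 mice and 4.33% (without IntP mouse 17) to 13.5% leaving out each mouse. It was 4.35% without IntL mouse 33, 6.09% without IntL mouse 34, 4.801% without IntP mouse 11 and 4.65% without IntP mouse 16.

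Within the matched type the share was 2.95% without the mice of high Sprr1a (of which only GastP mouse 44 enters there), 1.88% with at least 3 matched cells, and 2.68% (without GastP mouse 9) to 5.14% leaving out each mouse. P2rx4 was 0.077 with at least 3 matched cells, P2rx3 0.31 to 0.39 and P2rx6 -0.013 to 0.16 leaving out each mouse.

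The shares of droplet neurons with a UMI were 86.3% and 92.3% for P2rx2, 34.04% and 72.6% for P2rx3, and 19.2% and 54.2% for P2rx4, thinned and in the unfiltered matrix, and 3.68% for P2rx6 thinned. The highest cluster had 586.3 CPM of P2rx2, 85.7 of P2rx3, 22.2 of P2rx4 and 29.1 of P2rx6 at resolution 0.8. Without cluster 22 it had 85.7 CPM of P2rx3 and 22.8 of P2rx4. In picked cells P2rx2 was found in 99.8% at 1 read and 95.5% at 100 reads, and P2rx3 in 100% at 1 read. P2rx4 was found in 28.3% at 100 reads and in 95.1% at 1 read after thinning, and P2rx6 in 13.6% at 1 read and 0.223% at 100 reads. The alternatives without mice 21, 22, 27 and 44, with mice up to 39, with the codes weighted equally and without cluster 22, and Port against Gast and against Int, were chosen after seeing the data. The cause of these shifts was not tested.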

Other observations

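Other genes of purine signalling in the droplet neurons are given as levels, chosen by level after their values were seen. Of the list of 38 genes, Apbb1, an adaptor protein, had 152.9 CPM. The adenosine receptor Adora1 followed with 101.5 CPM and the volume-regulated anion channel subunit Lrrc8a with 83.2 CPM. Entpd3, an enzyme that breaks down extracellular ATP, had 75.1 CPM, the ADP receptor P2ry1 51.3 CPM, the adenosine kinase gene Adk 50.1 CPM, and the pannexins Panx2 and Panx1 47.5 and 43.1 CPM. No UMI was found of Panx3, Calhm1, Calhm3, Entpd8, P2ry4 or P2ry10, and a count of 0 allows up to 0.0443 CPM of each.

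The 53 cells of code na came from 4 mice. P2rx2 had at least 10 reads in 100% of them with a median of 662 CPM, P2rx3 in 92.5% with 716 CPM, P2rx4 in 96.2% with 43.1 CPM, and P2rx6 in 5.66%.

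The unfiltered droplet matrix also held clusters that stayed unnamed, with a median of 2095 UMIs. P2rx2 was at 303.2 CPM, P2rx3 at 123.7 CPM and P2rx4 at 37.04 CPM in them, and no P2rx6 UMI was found, which allows up to 1.88 CPM. These levels pool unlike clusters. The mean log2(CPM + 1) of the neuronal markers was 9.95, 9.81 and 9.83 in those led by Gpc3, Gpr65 and Coro1a. In the cluster led by Kcna1 it was 7.64, and the satellite glia markers were at 9.17, against 2.81 to 4.15 in the others.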
